A study of Homo sapiens with 24 samples.

Results

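H929 and MM1S are established human multiple myeloma cell lines, and the result described here is the difference between their responses to 24 h of YKL-5-124, a compound (YKL from here on) that the series title presents as a CDK7 inhibitor. The measure is an interaction: the YKL minus DMSO difference in H929 less the same difference in MM1S, on log2(FPKM + 1), where FPKM is the deposited expression value. A positive interaction means a response that was higher in H929, through a larger rise or a smaller fall, and a negative one a response that was lower there. It rests on the 12 libraries of 24 h among the 24 of the series, 3 in each of 4 groups: H929 with the vehicle DMSO, H929 with YKL, MM1S with DMSO and MM1S with YKL. The other 12 libraries are the same groups after 6 h and entered the estimate of the spread. The labels give H929 samples a dose of 83 nM and MM1S samples 98 nM, DMSO samples included, so line and dose cannot be told apart, and each group is 1 cell line, not a sample of patients. Nothing in the labels said whether replicates were separate cultures, so p-values measure the spread between these samples only, which may be technical.

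CDK7 is the kinase of the general transcription factor TFIIH, which phosphorylates RNA polymerase II early in transcription, and it also activates the cyclin-dependent kinases that drive the cell cycle. Myeloma cells are malignant plasma cells that depend on high transcription of immunoglobulin, secretory and lineage genes. H929 carries a translocation that brings FGFR3 and WHSC1 (also called NSD2) under an immunoglobulin enhancer, while MM1S carries one that drives MAF.

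The RNA scale of the libraries differed between the lines and is part of every deposited value. Summed gene FPKM over summed FPKM of the ERCC spike-ins, RNAs added in known amounts, averaged 13.5 ± 0.901 in H929 DMSO libraries and 7.01 ± 2.27 in H929 YKL libraries, against 3.87 ± 1.61 and 2.72 ± 0.259 in MM1S (SD, n = 3). The H929 YKL libraries were all below the H929 DMSO libraries, and the MM1S groups overlapped, since 1 MM1S YKL library lay above the lowest DMSO library. That was a change to 0.499-fold in H929 and 0.74-fold in MM1S, a log2 difference between them of -0.57. An exact permutation test of treatment labels within each line gave a two-sided p of 0.395 (400 arrangements). Its null is no treatment effect in either line, so it cannot decide whether the 2 changes differed. The log2 difference was -0.28 without H929 YKL replicate 2 and -0.89 without MM1S DMSO replicate 2, the highest library of its group at a ratio of 5.72 against 3.11 and 2.77. MM1S DMSO libraries of 6 h stood at 9.13 ± 1.17, so the MM1S control itself was lower at 24 h, and fewer cells and less RNA per cell cannot be told apart in such libraries. None of the 50 spike-ins with a mean of at least 10 FPKM passed the interaction test (0 called, median -0.01). The deposited values appear scaled to the spike-ins, so this outcome was largely set by the scaling and is no check of the library scale. Results were therefore computed as deposited and after median-of-ratios rescaling, and some genes are given on a single scale. Rescaling divides each library by the scale of its median gene and moves the median interaction over all genes from -0.34 to 0.08. The median over genes of each gene's own shift was 0.498.

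**Figure D1:**
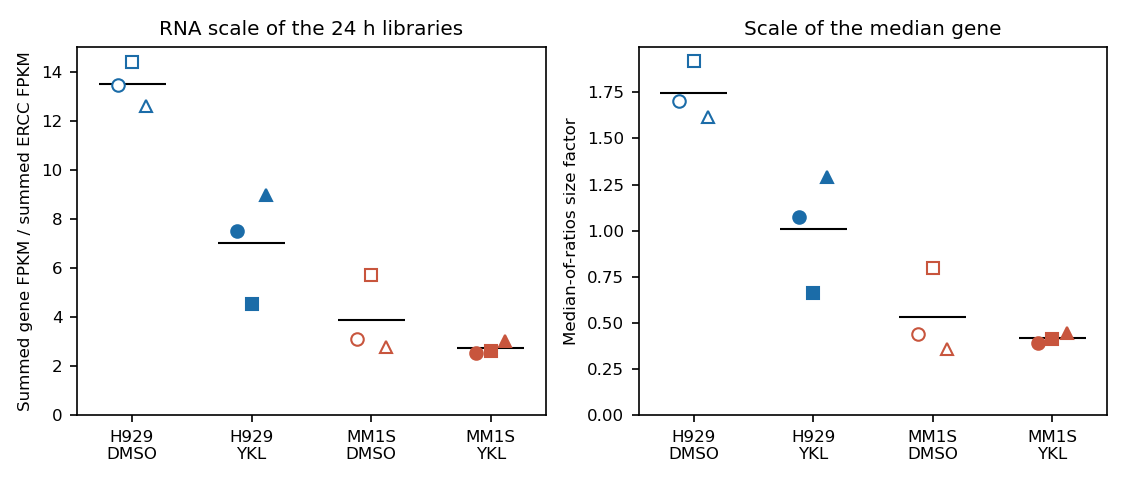
RNA scale of the 12 libraries of 24 h: summed gene FPKM over summed ERCC FPKM on the left and the median-of-ratios size factor on the right (both without unit, linear axes from 0). Open points are DMSO, filled points YKL, circle, square and triangle are replicates 1, 2 and 3, and bars are group means. H929 has mean ratios of 13.5 and 7.01, and MM1S DMSO replicate 2 stood apart from the other MM1S libraries at 5.72.

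The libraries carried the plasma cell genes of their labelled origin, and as deposited the lists of line markers told the lines apart only in part. All 8 plasma cell identity genes (SDC1, CD38, TNFRSF17, PRDM1, XBP1, IRF4, POU2AF1 and MZB1) were tested, and their summed level was 1040 to 7030 FPKM in every DMSO library of 24 h. The 3 tested H929 markers (FGFR3, WHSC1 and LETM1) summed to 129 to 279 FPKM in H929 libraries and 10.8 to 32.2 FPKM in MM1S libraries. The 6 MM1S markers summed to 1920 to 4230 FPKM in MM1S libraries and 2000 to 7550 FPKM in H929 libraries, so this list did not mark MM1S as deposited. Its largest member was the integrin gene ITGB7, and MAF had means of 16.2 FPKM in H929 DMSO and 16.4 FPKM in MM1S DMSO libraries, while CCND2 stood at 2.06 and 57.2 FPKM. Mean median-of-ratios size factors were 1.75 in H929 DMSO and 0.533 in MM1S DMSO libraries of 24 h. Rescaling therefore raises MM1S levels relative to H929 levels, and rescaled sums are not given here. Of the T cell, monocyte, and epithelial and fibroblast markers, 2, 3 and 2 of 10 each were tested, 2, 4 and 3 reached 1 FPKM in any library of 24 h, and 0 of the tested markers passed the interaction test as deposited. After rescaling 1 did, S100A8, a calcium-binding protein of myeloid cells. Summed levels of the 3 lists stayed within 2.48 to 4.87, 16.3 to 48.1 and 9.55 to 30.5 FPKM in H929 and 1.10 to 2.14, 1.56 to 4.02 and 0.973 to 2.32 FPKM in MM1S, and their part in the results was not tested.

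With all libraries, most of the line difference as deposited consisted of genes that fell in H929 and did not pass in MM1S. Of 12418 tested genes, 169 (1.36%) passed the limma interaction test as deposited, 36 (0.29%) positive and 133 (1.07%) negative. Of the 133 negative genes, 121 fell in H929 with no call in MM1S, 7 fell in both lines and 4 rose in MM1S alone (C11orf96, DUSP5, NABP1 and TMEM150A). CCDC127 was the 1 negative gene that fell in H929 and rose in MM1S, and TYMSOS the 1 positive gene that rose in H929 and fell in MM1S. Of the 36 positive genes, 21 rose in H929 alone, 13 fell in MM1S alone and 1 rose in both. The count as deposited rested on single libraries. It was 2396 (82 positive and 2314 negative) without MM1S DMSO replicate 2 and 651 without H929 YKL replicate 3. It was 79 without MM1S DMSO replicate 1, whose spike-ins scattered most among libraries of 24 h, 108, 50 and 79 without H929 DMSO replicates 1, 2 and 3, and 89, 69 and 61 without MM1S YKL replicates 1, 2 and 3. The predominance of negative genes was also not stable: positive and negative calls numbered 57 and 58 without H929 YKL replicate 2, 56 and 58 without MM1S DMSO replicate 3, and 30 and 36 in a fit of the 12 libraries of 24 h alone.

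After rescaling the balance turned. Now 1532 genes (12.3%) passed, 996 (8.02%) positive and 536 (4.32%) negative, and the count was 996 to 1610 when any 1 library of 24 h was left out, the lowest without H929 DMSO replicate 3. Quantile normalization gave a more even split, 939 positive and 800 negative. Of the positive genes 456 rose in H929 alone, 294 fell in MM1S alone and 87 rose in H929 and fell in MM1S, and of the negative genes 260 fell in H929 alone, 155 rose in MM1S alone and 39 fell in H929 and rose in MM1S. On both scales with the same sign 151 genes passed, 36 positive and 115 negative, which is 89.3% of the deposited calls and 9.86% of the rescaled calls, and 0 passed with opposite signs. Another description asked for all 9 YKL minus DMSO differences of one line to lie above all 9 of the other: 1932 genes (15.6%) met it on the rescaled values, 1345 of the 1532 called genes among them. Responses of the lines were similar in part, with Pearson's r of 0.506 as deposited and 0.481 rescaled across the 12418 genes, which share libraries and scale within a line.

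**Figure D2:**
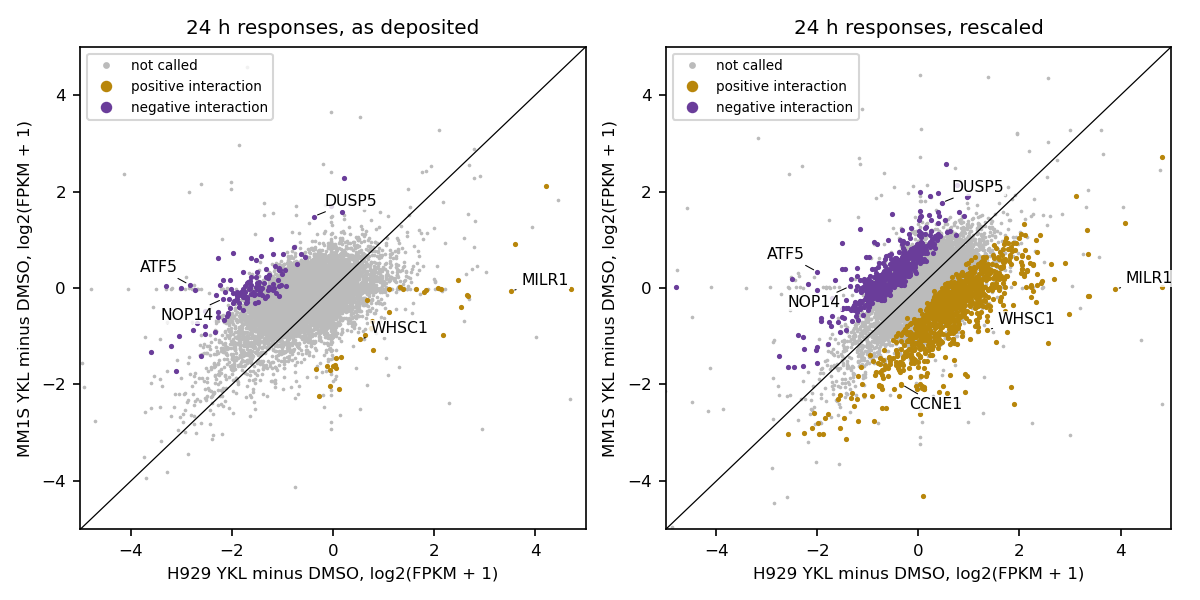
Response of each tested gene at 24 h in H929 (x axis) and MM1S (y axis), as YKL minus DMSO on log2(FPKM + 1), as deposited on the left and rescaled on the right. Ochre points passed the interaction test with a positive and purple points with a negative sign, grey points did not pass, the line marks equal responses, and 20 and 15 genes lie outside the axes. As deposited the called points are mostly purple (133 of 169), and after rescaling mostly ochre (996 of 1532).

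Genes called as deposited were often nearly silent in 1 line, and genes called after rescaling were less often so than all tested genes. As deposited, 16 of the 36 positive genes (44.4%) were below 1 FPKM in all 6 MM1S libraries of 24 h and 7 (19.4%) in all 6 H929 libraries, against 13% and 5.91% of all tested genes. Of the 133 negative genes 38 (28.6%) were below it in MM1S and 0 in H929. In such genes the interaction restates the response of the line that expressed the gene. After rescaling these shares were 11.5% and 4.52% of the positive and 5.41% and 3.54% of the negative genes. All lay below the shares of all tested genes, 13% in MM1S and 5.91% in H929.

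Genes of ribosome biogenesis held more negative rescaled calls than any other list tested. As deposited all 47 tested of 48 listed genes fell in H929 at 24 h and 7 fell in MM1S, with median log2 changes of -1.59 and -0.31 (-0.46 and -0.12 for all genes). Of all tested genes 35.4% fell in H929 and 6.77% in MM1S as deposited, and 12.5% and 13.3% after rescaling. After rescaling 38 and 10 genes of the list fell, with medians of -0.77 and -0.07 (0.13 and 0.05 for all genes). The interaction was negative in 5 genes as deposited and in 21 after rescaling, and positive in 0 on either scale, against the 1.07% and 4.32% of all genes given above. The deposited count was 38 without MM1S DMSO replicate 2 and 0 without H929 DMSO replicate 2, and the rescaled count 14 to 21 when 1 library was left out.

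NOP14, a factor of small ribosomal subunit assembly, read 63.6, 74 and 71.5 FPKM with DMSO and 16.8, 8.96 and 20.6 with YKL in H929, and 9.15, 17.6 and 7.08 with DMSO and 9.54, 7.88 and 9.27 with YKL in MM1S. The H929 groups were far apart, while the MM1S groups overlapped and DMSO replicate 2 was the highest. Its interaction was -1.95 ± 0.43 as deposited (adjusted p = 0.0228) and -1.39 ± 0.23 rescaled (adjusted p = 0.000666). RRP1, needed for processing of ribosomal RNA, read 83.8, 90.9 and 83.3 FPKM with DMSO and 26.8, 12.8 and 32.5 with YKL in H929, and 23, 48.3 and 24.2 with DMSO and 25.6, 25.4 and 29.5 with YKL in MM1S, where 2 of the 3 DMSO libraries were below every YKL library. Its interaction was -1.73 ± 0.41 as deposited (adjusted p = 0.0359) and -1.18 ± 0.15 rescaled (adjusted p = 6.91e-05). NOB1, the endonuclease that finishes small subunit RNA, fell from 89.5 ± 13.5 to 26.4 ± 10.1 FPKM in H929 and stood at 12.2 ± 5 and 10.1 ± 0.962 FPKM with DMSO and YKL in MM1S, an interaction of -1.59 ± 0.39 as deposited (adjusted p = 0.0448) and -1.02 ± 0.15 rescaled (adjusted p = 0.000252). The other 2 genes of the list that passed as deposited were the RNA helicase gene DDX21 and the nucleolar gene LYAR (interactions -1.55 and -1.75, adjusted p 0.0477 and 0.0233, both named after their values were seen). Each of these 5 calls as deposited was lost without at least 7 of the 12 libraries in turn, and each rescaled call stood without any one of them. Other members past the rescaled test included NPM1, the abundant nucleolar chaperone, NOP56 and DKC1 of small nucleolar RNA-guided RNA modification, and PES1 of the large subunit (rescaled interactions -0.90, -0.81, -0.69 and -0.83).

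Small nucleolar RNA host genes, which carry the guide RNAs of ribosomal RNA modification in their introns, fell in both lines and in part further in H929. Of 17 tested genes 14 fell in H929 and 9 in MM1S as deposited, 11 and 10 after rescaling, where 35.4% and 6.77%, and 12.5% and 13.3%, of all genes did. The interaction was negative in 2 and positive in 0 as deposited, negative in 4 and positive in 2 after rescaling. Over all genes 1.07% were negative and 0.29% positive as deposited, and 4.32% and 8.02% after rescaling. EPB41L4A-AS1, a noncoding host gene, fell from 202 ± 18.1 to 36.8 ± 17.9 FPKM in H929 and stood at 19.6 ± 6.56 and 13.5 ± 1.84 FPKM in MM1S, an interaction of -2.07 ± 0.41 as deposited (adjusted p = 0.0132) and -1.50 ± 0.21 rescaled (adjusted p = 0.000183). SNHG1 read 410.0, 585 and 443 FPKM with DMSO and 45.6, 28 and 62.6 with YKL in H929, and 87.4, 140.2 and 70.1 with DMSO and 22.6, 26.3 and 26.6 with YKL in MM1S, so YKL lay below DMSO in both lines, and its interaction was -1.55 ± 0.40 as deposited (adjusted p = 0.0502) and -0.96 ± 0.16 rescaled (adjusted p = 0.000747). SNHG7 fell likewise in both lines, with an interaction of -1.60 ± 0.42 as deposited (adjusted p = 0.0542) and -1.002 ± 0.20 rescaled (adjusted p = 0.00345). The 66 cytosolic ribosomal protein genes, the structural counterpart, had 0 interactions called on either scale, with median responses of -0.45 in H929 and -0.42 in MM1S after rescaling, and 19 of them were called as deposited without MM1S DMSO replicate 2. At an unadjusted p under 0.05 the counts over all genes were 2493 as deposited and 3265 rescaled. Aminoacyl-tRNA synthetases, which charge tRNAs, had 4 of 20 negative and 0 positive after rescaling, where 4.32% and 8.02% of all genes were (1 and 0 as deposited).

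**Figure D3:**
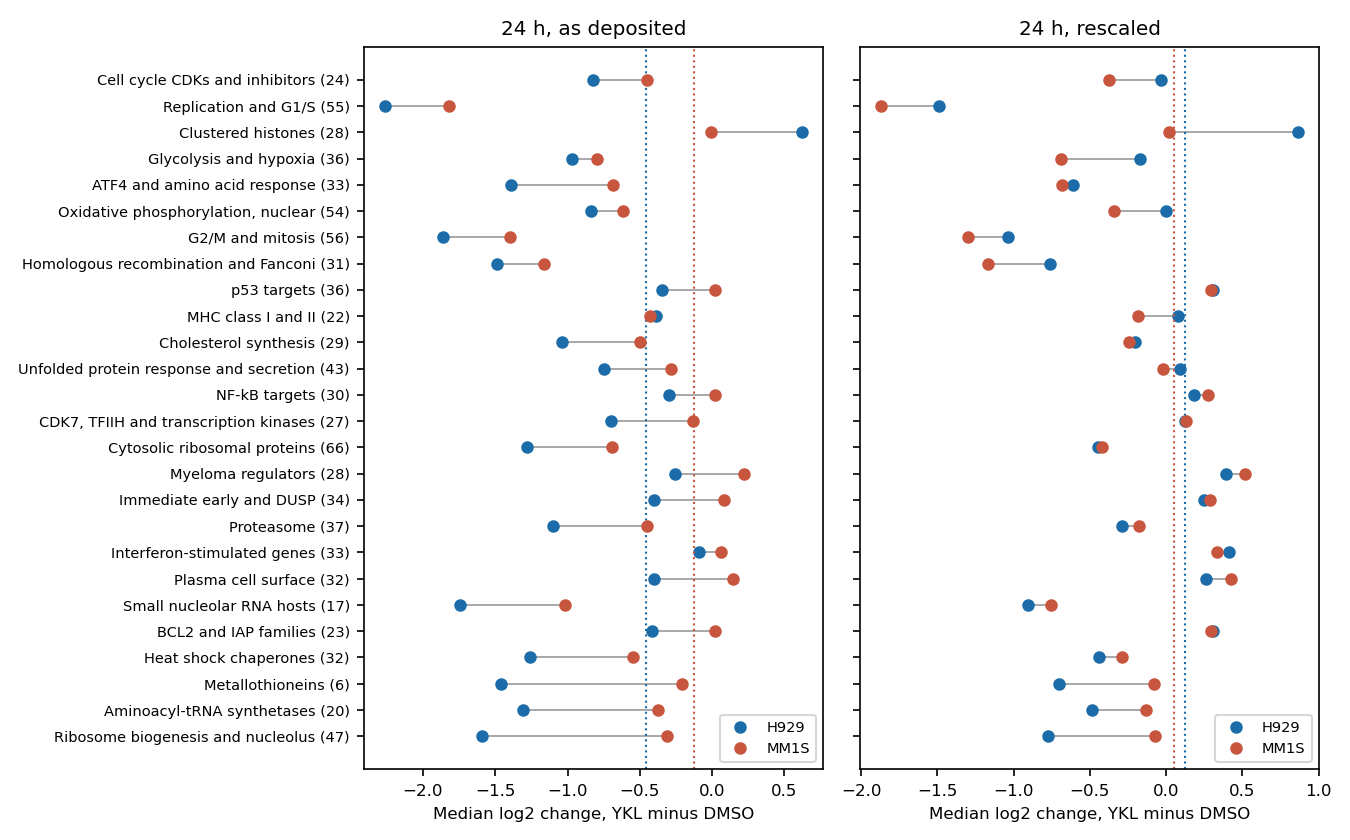
Median response at 24 h of each gene list (number of tested genes in brackets) in H929 (blue) and MM1S (red), as YKL minus DMSO on log2(FPKM + 1), as deposited on the left and rescaled on the right. Dotted lines are the medians of all tested genes. Ribosome biogenesis has medians of -0.77 and -0.07 after rescaling, replication of -1.49 and -1.87.

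The ATF4 programme, which raises amino acid supply under stress, held 2 of the 10 most negative genes, ATF5 and STC2, both expressed mainly in H929. ATF5, a transcription factor of this response, read 261, 408 and 342 FPKM with DMSO and 49.4, 28.4 and 66.5 with YKL in H929, and 5.95, 4.53 and 1.96 with DMSO and 3.27, 3.78 and 5.4 with YKL in MM1S. Its H929 groups did not overlap and its MM1S groups did. Its interaction was -2.91 ± 0.44 as deposited (adjusted p = 0.0018) and -2.34 ± 0.34 rescaled (adjusted p = 0.000234). STC2, a secreted stanniocalcin induced by this pathway, read 98.1, 106 and 88.1 FPKM with DMSO and 16.1, 6.28 and 13.7 with YKL in H929, and stayed at or below 1.43 FPKM in all 6 MM1S libraries. Its interaction was -3.01 ± 0.44 as deposited (adjusted p = 0.00132) and -2.27 ± 0.49 rescaled (adjusted p = 0.00482). Further members differed in the opposite direction after rescaling: DDIT4, an mTORC1 inhibitor, and CEBPB, a stress transcription factor, fell in MM1S by 1.27 and 1.28 and had H929 responses of -0.34 and -0.09. Their interactions were 0.36 ± 0.43 as deposited (adjusted p = 0.656) and 0.93 ± 0.15 rescaled (adjusted p = 0.000592) for DDIT4 and 0.52 ± 0.37 as deposited (adjusted p = 0.441) and 1.19 ± 0.21 rescaled (adjusted p = 0.00102) for CEBPB. The direction of DDIT4 depended on the control: with the DMSO libraries of 6 h it was -1.95 rescaled (adjusted p = 9.32e-08) and -1.42 as deposited (adjusted p = 0.049). ATF4 itself had a rescaled interaction of -1.04 (adjusted p = 0.00284) and -1.60 as deposited (adjusted p = 0.0624). In all 5 of 33 tested genes were positive and 3 negative after rescaling (8.02% and 4.32% of all genes), and 0 and 2 as deposited (0.29% and 1.07%).

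Of the plasma cell identity genes, XBP1, the transcription factor of the secretory programme, and TNFRSF17, the surface receptor BCMA, had negative interactions after rescaling. XBP1 read 3132, 3209 and 2666 FPKM with DMSO and 1666, 868 and 1764 with YKL in H929, and 357, 874 and 365 with DMSO and 633, 612 and 861 with YKL in MM1S. Levels fell in H929 as deposited, and in MM1S every YKL library lay above 2 of the 3 DMSO libraries. Its interaction was -1.65 ± 0.44 as deposited (adjusted p = 0.0542) and -1.08 ± 0.16 rescaled (adjusted p = 0.000252). After rescaling XBP1 rose by 0.79 in MM1S (adjusted p = 2.31e-05) and had a response of -0.29 in H929 (adjusted p = 0.0539). TNFRSF17 had an interaction of -1.26 ± 0.42 as deposited (adjusted p = 0.113) and -0.69 ± 0.21 rescaled (adjusted p = 0.0372), and the rescaled call was lost without 8 of the 12 libraries in turn. Of the 8 identity genes 0 were positive and these 2 negative after rescaling, and 0 passed as deposited. Unfolded protein response and secretion genes had 3 positive and 2 negative of 43 after rescaling, and plasma cell surface genes 2 and 4 of 32. That was 11.6% and 18.8% called, against 12.3% of all genes (8.02% positive and 4.32% negative). HSPA5, the chaperone BiP of the endoplasmic reticulum, stood at -0.78 after rescaling (adjusted p = 0.000974). IRF4, a master regulator of myeloma, had an interaction of -0.25 ± 0.39 as deposited (adjusted p = 0.741) and 0.30 ± 0.18 rescaled (adjusted p = 0.305). MYC stood near the floor of the values in H929, where its mean FPKM was 0.517 ± 0.197 with DMSO and 0.299 ± 0.282 with YKL, against 6.36 ± 4.37 with DMSO and 7.05 ± 1.02 with YKL in MM1S, with an interaction of -0.52 ± 0.47 as deposited (adjusted p = 0.554) and -0.63 ± 0.36 rescaled (adjusted p = 0.278). CDK7 itself read 5.83, 9.97 and 6.2 FPKM with DMSO and 4.84, 2.47 and 4.85 with YKL in H929, and 3.64, 3.65 and 1.44 with DMSO and 1.58, 1.17 and 2.15 with YKL in MM1S, with YKL below DMSO without overlap in H929 and the groups overlapping in MM1S. Its H929 response was -0.73 as deposited (adjusted p = 0.0838) and -0.03 rescaled (adjusted p = 0.956). Neither line had a call for CDK7 on either scale. The gene had an interaction of -0.20 ± 0.46 as deposited (adjusted p = 0.832) and 0.37 ± 0.41 rescaled (adjusted p = 0.624). Among CDK7, TFIIH and transcription kinase genes 1 of 27 was positive and 3 negative after rescaling (1 called without MM1S YKL replicate 3). That was 14.8% called, against 12.3% of all genes. As deposited 0 of them passed (11 without MM1S DMSO replicate 2).

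WHSC1 and FGFR3, the genes of the H929 translocation, had positive interactions. WHSC1, a histone methyltransferase, read 89.2, 96.2 and 82.5 FPKM with DMSO and 147, 86.4 and 171 with YKL in H929, and 10.4, 18.8 and 8.63 with DMSO and 4.1, 5.7 and 6.02 with YKL in MM1S. MM1S YKL lay below MM1S DMSO without overlap, and 2 of the 3 H929 YKL libraries lay above all H929 DMSO libraries. Its interaction was 1.59 ± 0.37 as deposited (adjusted p = 0.0342) and 2.23 ± 0.13 rescaled (adjusted p = 1.05e-09). The deposited call was lost without 8 of the 12 libraries in turn, with adjusted p from 0.00893 to 0.0876. FGFR3, the receptor kinase gene on the other side of the same translocation, read 24.5, 23.9 and 23 FPKM with DMSO and 78.7, 42.7 and 93.6 with YKL in H929, with every YKL library above every DMSO library, and stayed at or below 0.689 FPKM in MM1S. Its interaction was 1.24 ± 0.34 as deposited (adjusted p = 0.0628) and 1.80 ± 0.25 rescaled (adjusted p = 0.000117). WHSC1 rose by 1.36 in H929 and fell by 0.87 in MM1S after rescaling, and FGFR3 rose by 2.28 in H929. The FGFR3 response in MM1S was 0.47 rescaled (adjusted p = 0.0487) and did not pass as deposited (adjusted p = 0.689). Its MM1S groups overlapped near the floor, at 0.177 to 0.300 FPKM with DMSO and 0.154 to 0.689 with YKL. Both genes are listed markers of H929, and they are named here after their values were seen. LETM1, which encodes a mitochondrial inner membrane protein and is the third tested marker of that list, did not pass the interaction test: it was -0.79 as deposited (adjusted p = 0.263) and -0.26 rescaled (adjusted p = 0.288). It fell by 1.00 in H929 as deposited (adjusted p = 0.00754) and had a rescaled response of -0.22 there (adjusted p = 0.131). CCND2, a D-type cyclin expressed mainly in MM1S here, had an interaction of 0.71 ± 0.41 as deposited (adjusted p = 0.335) and 0.94 ± 0.35 rescaled (adjusted p = 0.0888), and of the 6 MM1S markers 0 passed on either scale.

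**Figure D4:**
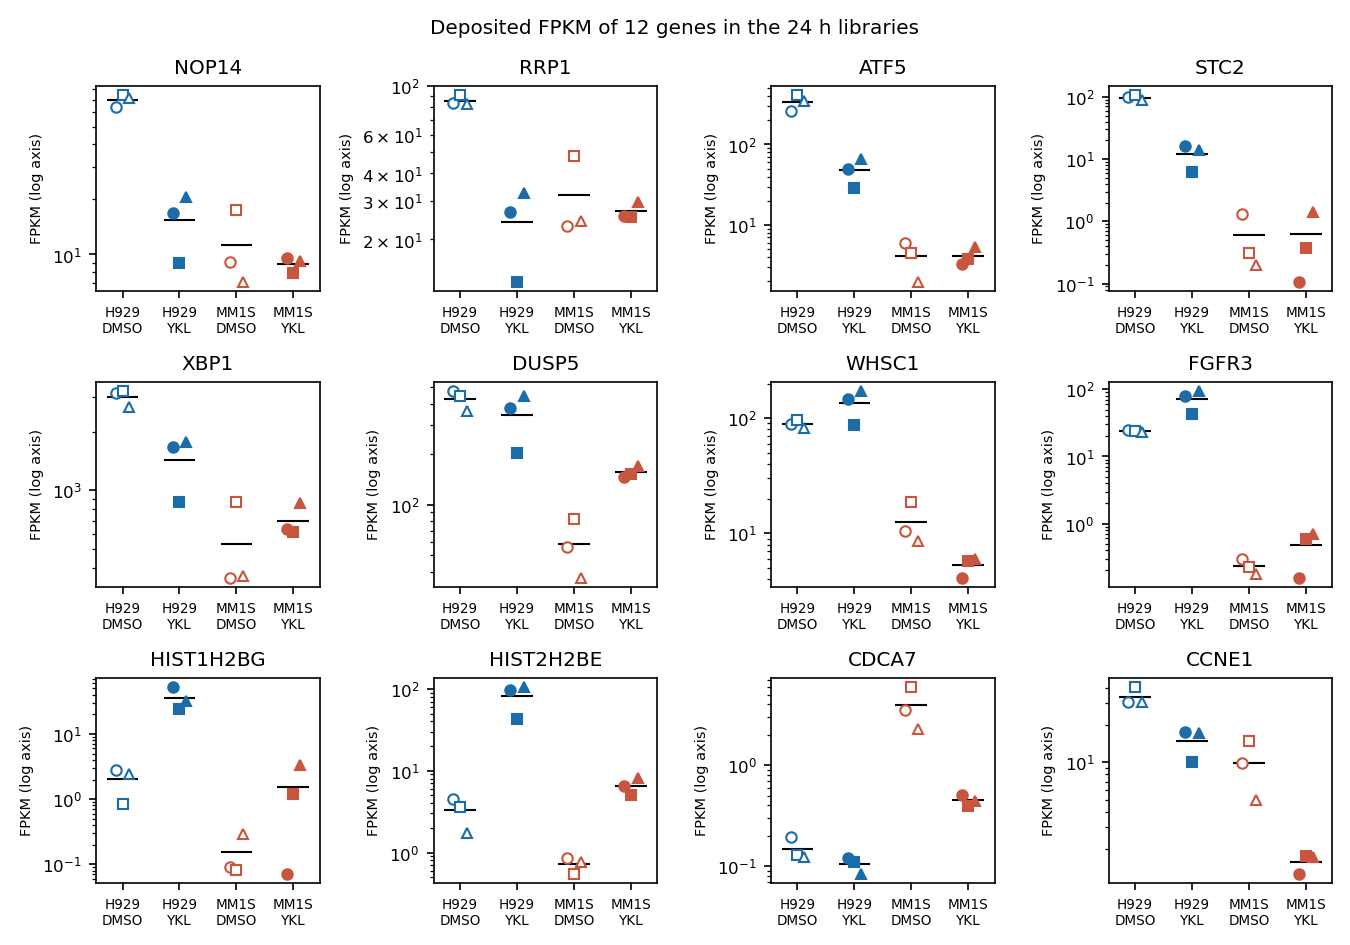
Deposited FPKM (log axis) of 12 genes in the 12 libraries of 24 h. Open points are DMSO and filled points YKL, blue is H929 and red MM1S, circle, square and triangle are replicates 1, 2 and 3, and bars are group means. NOP14 drops from a mean of 69.7 to 15.5 FPKM in H929 and lies at 11.3 and 8.90 in MM1S, and WHSC1 has means of 89.3 and 135 in H929 and 12.6 and 5.27 in MM1S.

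Replication and cell cycle genes fell in both lines, and the sign of their difference depended on the scale. As deposited all 55 replication and G1/S genes fell in H929 and 45 in MM1S, and after rescaling 51 and 50 did, against the shares of all genes given with ribosome biogenesis (35.4% and 6.77%, then 12.5% and 13.3%). The median interaction was -0.36 as deposited, close to that of all genes (-0.34), and 0.45 after rescaling (0.08 for all genes). After rescaling 16 were positive and 0 negative (10 without MM1S YKL replicate 1, 18 without MM1S YKL replicate 3), against 8.02% and 4.32% of all genes. As deposited 0 passed in either direction. Other settings moved the deposited count: 13 passed without MM1S DMSO replicate 2, 16 were negative with a pseudocount of 5, and 8 were positive with the DMSO libraries of 6 h as control. CCNE1, which encodes cyclin E1 of S phase entry, read 30.6, 40.4 and 30.9 FPKM with DMSO and 17.5, 10.1 and 17.3 with YKL in H929, and 9.94, 14.8 and 4.97 with DMSO and 1.26, 1.75 and 1.72 with YKL in MM1S. On these deposited values YKL lay below DMSO without overlap in both lines. After rescaling CCNE1 fell by 1.99 in MM1S and had a response of -0.35 in H929 that did not pass (adjusted p = 0.122). Its interaction was 0.82 ± 0.42 as deposited (adjusted p = 0.278) and 1.64 ± 0.24 rescaled (adjusted p = 0.000215). LIG1, the ligase of lagging strand synthesis, and MCM2, a subunit of the replicative helicase, had rescaled interactions of 1.23 ± 0.20 (adjusted p = 0.000592) and 1.13 ± 0.21 (adjusted p = 0.00161), and MCM2 fell by 1.89 in H929 and 3.02 in MM1S on that scale. As deposited LIG1 and MCM2 stood at 0.51 and 0.29 (adjusted p 0.459 and 0.693). E2F1, the transcription factor of S phase genes, had an interaction of -0.17 ± 0.39 as deposited (adjusted p = 0.83) and 0.80 ± 0.22 rescaled (adjusted p = 0.0233), a change of sign between the scales, and the rescaled call was lost without 4 of the 12 libraries in turn.

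Regulators of the cell cycle engine were mostly positive where they passed after rescaling, as was the whole set of called genes (996 of 1532). Of 24 cell cycle CDKs, cyclins and inhibitors 6 were positive and 1 negative after rescaling, against 8.02% and 4.32% of all genes. When 1 library was left out 4 to 10 were called, the lowest without H929 DMSO replicate 3. As deposited 0 passed with all libraries. With the DMSO libraries of 6 h as control 4 were positive and 2 negative after rescaling (6.24% and 4.17% of all genes). CCND3, a D-type cyclin, read 115, 108 and 100.2 FPKM with DMSO and 69.8, 36.8 and 62.9 with YKL in H929, and 10.1, 23 and 11.8 with DMSO and 4.28, 2.85 and 5.38 with YKL in MM1S, with an interaction of 0.60 ± 0.40 as deposited (adjusted p = 0.401) and 1.29 ± 0.22 rescaled (adjusted p = 0.001). CDKN2D, an INK4 inhibitor of CDK4 and CDK6, had a rescaled interaction of 1.74 ± 0.35 (adjusted p = 0.00313) and rose by 0.68 in H929 and fell by 1.06 in MM1S on that scale. TFDP1, the dimer partner of E2F proteins, had one of 1.22 ± 0.29 (adjusted p = 0.00891). As deposited CDKN2D and TFDP1 stood at 1.16 and 0.55 (adjusted p 0.194 and 0.428). G2/M and mitosis genes fell in 54 of 56 in H929 and 47 in MM1S as deposited (35.4% and 6.77% of all genes). Their interaction was positive in 6 and negative in 2 after rescaling (14.3% called, against 12.3% of all genes), and 0 passed as deposited. Homologous recombination and Fanconi genes had 5 positive of 31 after rescaling (2 called without H929 YKL replicate 2) and 1 negative as deposited.

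Histone genes included 3 of the 10 most positive interactions, all of the H2B class. HIST2H2BE read 4.53, 3.61 and 1.71 FPKM with DMSO and 96.2, 42.6 and 104 with YKL in H929, and 0.855, 0.547 and 0.763 with DMSO and 6.44, 5.05 and 8.16 with YKL in MM1S. YKL lay above DMSO without overlap in both lines, and the level reached was higher in H929. Its interaction was 2.10 ± 0.49 as deposited (adjusted p = 0.0341) and 2.09 ± 0.41 rescaled (adjusted p = 0.00253). HIST1H2BG read 2.84, 0.848 and 2.41 FPKM with DMSO and 51.9, 24.1 and 32.2 with YKL in H929, and 0.092, 0.0833 and 0.288 with DMSO and 0.0711, 1.19 and 3.36 with YKL in MM1S, an interaction of 2.696 ± 0.55 as deposited (adjusted p = 0.0149) and 2.75 ± 0.64 rescaled (adjusted p = 0.00848). HIST1H2BN was at or below 0.113 FPKM in 9 of the 12 libraries, and in H929 with YKL it read 4.15, 3.76 and 3.69 FPKM, an interaction of 2.14 ± 0.47 as deposited (adjusted p = 0.0233) and 2.22 ± 0.55 rescaled (adjusted p = 0.0118). Clustered histones had 3 of 28 positive as deposited and 6 after rescaling (0.29% and 8.02% of all genes), with 0 negative on either scale. The list is 38 genes long, of which 10 did not pass the filter. The deposited count was 0 without H929 DMSO replicate 2 and 7 without MM1S DMSO replicate 2. Members are near-identical copies whose reads may be split between them, and most end without a poly(A) tail in cycling cells, so a 3′ library reads only their polyadenylated forms.

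The 250 bases before the start of these 3 genes are shown because H2B genes are known for an octamer element in their promoters. Capitals mark the octamer (ATTTGCAT, or ATGCAAAT on the other strand) and CCAAT boxes (CCAAT, or ATTGG on the other strand). The sequences are RefSeq's on GRCh38.p14, a later build than the hg19 of the deposited values, matched by gene symbol and written 5′ to 3′ on the gene's strand.
HIST1H2BG (H2BC8, chr6:26216689-26216938, minus strand): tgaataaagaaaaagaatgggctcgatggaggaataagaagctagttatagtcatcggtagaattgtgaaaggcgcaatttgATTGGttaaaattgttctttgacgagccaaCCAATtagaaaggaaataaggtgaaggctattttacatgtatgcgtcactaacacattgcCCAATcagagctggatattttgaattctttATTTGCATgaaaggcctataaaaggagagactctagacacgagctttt
HIST1H2BN (H2BC15, chr6:27838319-27838568, plus strand): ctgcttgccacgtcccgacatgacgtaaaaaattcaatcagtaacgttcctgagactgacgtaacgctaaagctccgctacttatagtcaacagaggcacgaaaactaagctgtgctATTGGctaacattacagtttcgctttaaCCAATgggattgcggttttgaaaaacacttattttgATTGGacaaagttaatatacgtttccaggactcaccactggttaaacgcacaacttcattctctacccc
HIST2H2BE (H2BC21, chr1:149886683-149886932, minus strand): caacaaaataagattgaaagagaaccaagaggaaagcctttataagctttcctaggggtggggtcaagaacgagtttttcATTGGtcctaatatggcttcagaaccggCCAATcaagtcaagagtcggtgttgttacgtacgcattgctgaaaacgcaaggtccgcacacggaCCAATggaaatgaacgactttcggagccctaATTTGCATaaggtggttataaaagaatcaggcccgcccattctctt
The octamer begins 48 bases before the start of HIST1H2BG and 46 before that of HIST2H2BE, has no match in this window of HIST1H2BN, and each window holds 3 CCAAT matches. Of 10 matched promoters among the 11 tested H2B genes of the histone clusters 8 held the octamer (80%) and 10 a CCAAT match, against 122 (1.31%) and 3344 (36%) of the 9290 matched promoters of all tested genes. These matches are a description of the letters in the window.

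A further 7 genes, named after their values were seen, had a call in MM1S and none in H929 as deposited. CDCA7, a replication-linked chromatin gene, read 3.52, 5.9 and 2.3 with DMSO and 0.503, 0.392 and 0.446 with YKL in MM1S and stayed at or below 0.194 FPKM in H929, an interaction of 1.64 ± 0.27 as deposited (adjusted p = 0.00263) and 2.02 ± 0.18 rescaled (adjusted p = 1.33e-06). HEMGN, a haematopoietic nuclear protein, SLC27A2, a fatty acid transport protein, and SPARC, a secreted matrix protein, fell in MM1S as well. Their means went from 8.35 ± 3.89 to 1.78 ± 0.191, 2.88 ± 0.927 to 0.242 ± 0.173 and 4.75 ± 1.9 to 1.06 ± 0.397 FPKM, with interactions of 1.34, 1.63 and 1.504 as deposited (adjusted p 0.0432, 0.0018 and 0.0233). In the other direction DUSP5, a phosphatase of the ERK kinases, read 474, 442 and 361 FPKM with DMSO and 375, 203 and 446 with YKL in H929, and 55.7, 82.1 and 36.6 with DMSO and 146, 152 and 171 with YKL in MM1S. MM1S YKL lay above MM1S DMSO without overlap, and the H929 groups overlapped. Its interaction was -1.87 ± 0.40 as deposited (adjusted p = 0.0195) and -1.31 ± 0.16 rescaled (adjusted p = 6.01e-05). NABP1, a single-stranded DNA binding protein, and TMEM150A, a membrane protein, rose in MM1S from 10.8 ± 3.59 to 32.9 ± 5.26 and from 3.17 ± 2.02 to 11.7 ± 2.12 FPKM, with rescaled interactions of -0.93 ± 0.18 (adjusted p = 0.00289) and -1.39 ± 0.19 (adjusted p = 0.000164). As deposited NABP1 and TMEM150A stood at -1.38 and -1.75 (adjusted p 0.0475 and 0.0149), calls lost without 10 and 2 of the 12 libraries in turn. After rescaling DUSP5, NABP1 and TMEM150A also rose in H929, by 0.46, 0.96 and 0.76, against 1.77, 1.89 and 2.14 in MM1S.

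The p53 targets differed in both directions. After rescaling 7 of 36 tested genes were positive and 4 negative (8.02% and 4.32% of all genes), and as deposited 0 and 2 (0.29% and 1.07%). With the DMSO libraries of 6 h as control 4 were positive and 8 negative after rescaling, against 6.24% and 4.17% of all genes, so the balance of the list turned with the control. AEN, an apoptosis-enhancing nuclease, read 119, 131 and 116 FPKM with DMSO and 39.8, 19.5 and 53.7 with YKL in H929, and 11.9, 19.1 and 10.9 with DMSO and 11, 15.1 and 14.2 with YKL in MM1S, an interaction of -1.75 ± 0.41 as deposited (adjusted p = 0.0341) and -1.19 ± 0.20 rescaled (adjusted p = 0.000838). TP53INP1, a p53-induced nuclear protein, rose in both lines after rescaling, by 1.76 in H929 and 0.81 in MM1S, an interaction of 0.61 ± 0.32 as deposited (adjusted p = 0.287) and 0.95 ± 0.17 rescaled (adjusted p = 0.0014). FDXR, a mitochondrial reductase, had a rescaled interaction of 0.86 ± 0.16 (adjusted p = 0.00172), and the CDK inhibitor gene CDKN1A one of 0.68 ± 0.20 (adjusted p = 0.0332) that was lost without 6 of the 12 libraries in turn and stood at -0.81 with the control of 6 h (adjusted p = 0.014). As deposited FDXR and CDKN1A stood at 0.31 and 0.05 (adjusted p 0.667 and 0.951). MDM2, the ligase that removes p53, was negative at -0.86 (adjusted p = 0.00721) after rescaling and -1.42 as deposited (adjusted p = 0.0733). Heat shock chaperones were split in the same way, with 3 of 32 positive and 6 negative after rescaling (8.02% and 4.32% of all genes). With the DMSO libraries of 6 h as control 5 were positive and 2 negative after rescaling, so the balance of this list turned as well. As deposited 1 was negative with the 24 h control. DNAJB6, a co-chaperone, had an interaction of -1.89 ± 0.42 as deposited (adjusted p = 0.0233) and -1.35 ± 0.19 rescaled (adjusted p = 0.000174), with a response of -1.19 in H929 and 0.70 in MM1S as deposited. HSPA1B, the inducible chaperone HSP70, and PTGES3, the HSP90 co-chaperone p23, had rescaled interactions of 1.15 ± 0.20 (adjusted p = 0.001) and 0.74 ± 0.15 (adjusted p = 0.00317). As deposited HSPA1B and PTGES3 stood at 0.57 and 0.18 (adjusted p 0.356 and 0.815). HSPA1B has a near-identical copy, so its reads are uncertain.

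The largest single-gene differences were of mixed function, mostly in genes that MM1S hardly expressed. MILR1, an inhibitory immunoreceptor, read 1.98, 0.908 and 0.513 FPKM with DMSO and 31.5, 10.4 and 33.8 with YKL in H929, and at most 0.394 FPKM in MM1S, an interaction of 3.59 ± 0.57 as deposited (adjusted p = 0.00215) and 3.92 ± 0.50 rescaled (adjusted p = 6.91e-05). UPK3A, a uroplakin, and CACNG6, a calcium channel subunit, rose from 11.4 ± 8.17 to 70.1 ± 24.9 and from 5.92 ± 3.82 to 41.2 ± 15 FPKM in H929, and all 12 values of these 2 genes in MM1S were below 1 FPKM. Their interactions were 2.79 and 2.83 as deposited and 3.55 and 3.51 rescaled. ENDOG, a mitochondrial nuclease, had an interaction of 3.16 ± 0.67 as deposited (adjusted p = 0.0178) and 3.70 ± 0.80 rescaled (adjusted p = 0.0052). It read 2.11, 1.59 and 0.126 FPKM with DMSO and 14.6, 4.84 and 8.31 with YKL in H929. In MM1S it read 5.61, 1.12 and 0.0548 with DMSO and 0.0873, 0.071 and 0.667 with YKL. Without MM1S DMSO replicate 1 the interaction was 2.45 as deposited and 2.68 rescaled. The deposited call was lost without H929 DMSO replicate 3 or MM1S YKL replicate 2. The antisense entries ST3GAL4-AS1, ZNF341-AS1 and TYMSOS had interactions of 2.93, 2.31 and 2.08 as deposited and 3.52, 2.13 and 2.64 rescaled. Strand use in counting is not given in the sources used here, so reads of an antisense entry and its partner cannot be told apart.

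On the negative side OR7E12P, an olfactory receptor pseudogene, read 69.1, 71.4 and 83.8 FPKM with DMSO and 7.13, 2.81 and 13.5 with YKL in H929 and 1.07, 0.908 and 1.12 with DMSO and 1.93, 0.492 and 1.06 with YKL in MM1S, an interaction of -3.34 ± 0.54 as deposited (adjusted p = 0.00217) and -2.69 ± 0.54 rescaled (adjusted p = 0.00332). IFRD1, an interferon-related developmental regulator, read 14.9, 17.3 and 15 FPKM with DMSO and 2.23, 1.91 and 3.33 with YKL in H929, and 4.7, 7.61 and 2.89 with DMSO and 7.72, 7.61 and 8.11 with YKL in MM1S, an interaction of -2.89 ± 0.33 as deposited (adjusted p = 3.58e-05) and -2.45 ± 0.17 rescaled (adjusted p = 2.62e-08). After rescaling it fell by 1.52 in H929 and rose by 0.94 in MM1S. MT1E, a metal-binding metallothionein, fell from 44.8 ± 7.12 to 10.6 ± 1.23 FPKM in H929 and read 0.0826, 0.0794 and 0.0428 with DMSO and 0.785, 0.0552 and 1.95 with YKL in MM1S, where 1 YKL library was at 1.95 FPKM and another at the floor, an interaction of -2.71 ± 0.42 as deposited (adjusted p = 0.0018) and -2.38 ± 0.53 rescaled (adjusted p = 0.00668). It was the 1 of 6 tested metallothioneins that passed, on both scales. KIF26A, a kinesin family member, HBE1, the embryonic globin gene, and TLCD1, a membrane protein, fell in H929 from 11.5 ± 0.954 to 0.905 ± 0.439, from 6.44 ± 1.75 to 0.604 ± 0.0558 and from 30.3 ± 1.78 to 6.12 ± 2.87 FPKM. Their interactions were -2.68, -2.36 and -2.30 as deposited and -1.96, -1.89 and -1.85 rescaled. The noncoding entries LINC01291 and PTOV1-AS2 had interactions of -2.25 and -2.11 as deposited and -2.04 and -1.85 rescaled. Of the 36 calls as deposited among the 60 named genes, 14 stood without any one library and 22 were lost without at least 1. Of the 56 rescaled calls 50 stood, and those of CDKN1A, E2F1, LINC01291, MCL1, TNFRSF17 and ZNF341-AS1 were lost without at least 1. In the fit of the 12 libraries of 24 h alone, 19 of the 36 deposited calls were kept and 17 lost. The lost calls were those of HIST2H2BE, TYMSOS, TLCD1, PTOV1-AS2, RRP1, NOB1, NOP14, DDX21, LYAR, EPB41L4A-AS1, AEN, DNAJB6, WHSC1, DUSP5, NABP1, TMEM150A and HEMGN, with adjusted p from 0.0556 (TLCD1) to 0.227 (NABP1). Of the 56 rescaled calls 52 were kept in that fit, and those of HIST1H2BG, MCL1, E2F1 and CDKN1A were lost, with adjusted p from 0.0584 to 0.15.

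The 6 h libraries, which share no library with those of 24 h, showed smaller differences, mostly of the same sign. At 6 h 21 genes (0.169%) passed the interaction test as deposited and 141 (1.14%) after rescaling. Of the 996 genes positive at 24 h on the rescaled scale 715 (71.8%) were positive at 6 h, against 53.2% of all genes, and 35 passed there. Of the 536 negative genes 386 (72%) were negative at 6 h, against 46.8% of all genes, and 19 passed. SCARNA23, a small Cajal body RNA, was the 1 of these genes that passed with opposite signs, at -4.81 at 24 h and 4.79 at 6 h. Median interactions of the positive and negative genes were 1.03 and -0.80 at 24 h, and 6 h values for them were 0.20 and -0.19. The change of the interaction from 6 h to 24 h itself passed the limma test in 137 of the positive and 53 of the negative genes. Over all genes it passed in 226, 156 with a positive and 70 with a negative change. As deposited it passed in 1 of the 36 positive and 3 of the 133 negative genes, and in 4 over all genes. The genes were chosen by the 24 h interaction, which this change contains. That choice in part sets these counts and the smaller medians at 6 h. Among named genes XBP1 (-1.10, adjusted p = 0.00156), IFRD1 (-0.99, adjusted p = 0.00658), WHSC1 (0.88, adjusted p = 0.00156), CDCA7 (1.31, adjusted p = 0.00125), HEMGN (1.22, adjusted p = 0.00151) and HSPA1B (1.72, adjusted p = 0.000255) passed at 6 h after rescaling with the sign of 24 h, as did MCL1, CDKN1A, TP53INP1 and ST3GAL4-AS1. NOP14 (-0.06, adjusted p = 0.956), RRP1 (-0.29, adjusted p = 0.415), ATF5 (-0.41, adjusted p = 0.659) and DUSP5 (0.57, adjusted p = 0.106) had no call there, and the ribosome biogenesis list had a median of -0.01 at 6 h with 1 gene positive and 0 negative.

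**Figure D5:**
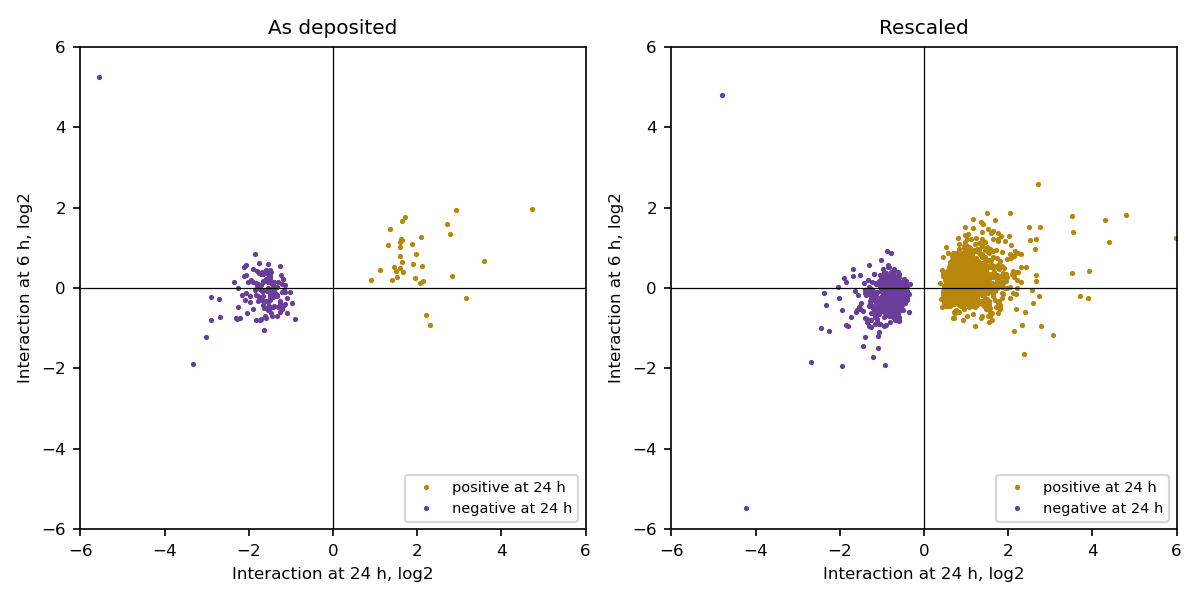
Interaction at 24 h (x axis) against the interaction at 6 h (y axis), both on log2(FPKM + 1), for the genes that passed at 24 h, as deposited on the left (169 genes, 3 outside the axes) and rescaled on the right (1532 genes, 4 outside). Ochre is positive and purple negative at 24 h. After rescaling 71.8% of the positive genes lie above 0 at 6 h and 72% of the negative genes below it.

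Because the MM1S DMSO libraries changed between 6 h and 24 h, with 6950 genes lower and 32 higher as deposited and 668 and 1273 after rescaling (5 and 13, and 47 and 80, in H929), the interaction was also computed with the DMSO libraries of 6 h as the control. It shares its YKL libraries with the main comparison. As deposited 780 genes passed, 691 positive (5.56%) and 89 negative (0.717%), so the balance turned, and after rescaling 1293, 775 positive (6.24%) and 518 negative (4.17%). WHSC1 and ATF5 stood at 2.22 and -2.65 rescaled with that control, NOP14 and RRP1 at -1.02 and -1.03, and XBP1, DUSP5 and CCNE1 at -1.10, -1.42 and 1.97. As deposited NOP14 and RRP1 stood at -0.54 and -0.50 with that control and did not pass (adjusted p 0.453 and 0.477), and 0 of the 47 ribosome biogenesis genes did, against 10 after rescaling. MCL1, the anti-apoptotic BCL2 relative, had an interaction of -0.93 ± 0.37 as deposited (adjusted p = 0.171) and -0.37 ± 0.12 rescaled (adjusted p = 0.0415) with the control of 24 h and -0.86 rescaled with that of 6 h. Of the 56 rescaled calls of named genes 45 were kept with that control, 9 were lost, and DDIT4 and CDKN1A passed with the opposite sign. The lost calls were CDKN2D at 0.23 (adjusted p = 0.743), LYAR at -0.34 (0.336), LINC01291 at -0.97 (0.321), ZNF341-AS1 at 1.13 (0.265), PTOV1-AS2 at -0.81 (0.248), FDXR at 0.34 (0.2), TNFRSF17 at -0.53 (0.128), HIST1H2BN at 1.38 (0.123) and TLCD1 at -1.20 (0.083). Of the 36 deposited calls 20 were kept and 16 lost.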

How the data were processed

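The 24 libraries are 3′ RNA sequencing (QuantSeq) of H929 and MM1S cells. The authors deposited FPKM per gene; per the submitters' processing notes these come from HISAT2 and Cuffnorm on hg19, with versions not given in the sources used here. Neither the scaling to ERCC spike-ins that the values show nor the floor near 0.1 FPKM is described there, depth is unknown, and division by gene length does not suit 3′ reads. 0 values were 0, and 0 columns of other samples were present.

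From the deposited FPKM, log2(FPKM + 1) was fitted with limma 3.58.1 in R 4.3.3 (trended variance, 8 group means over all 24 libraries) for the 12418 of 26249 genes that reached 1 FPKM in 3 or more libraries, with Benjamini-Hochberg adjusted p under 0.05 as a call; ± after an interaction is its SE and after an FPKM its SD, n = 3. The log2 scale understates changes of low genes. Rescaling used median-of-ratios size factors, from genes whose geometric mean was 5 FPKM or more. The method was tested on simulated data with independent noise in each gene and no shift of whole libraries. That simulation cannot show how such shifts move the counts. Alternatives changed the pseudocount, filter, scaling, libraries, control and replicate block.

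Named genes are the 10 most positive and 10 most negative called on both scales with separated responses (small RNA and uncharacterised entries left out), up to 3 called members from the 8 of 32 lists with the largest called share, and XBP1, CCND2, CDKN1A, E2F1, CDK7, MCL1, MYC and IRF4; others named were chosen after their values were seen. Members and lists were chosen with earlier results of these data known. Promoter sequences are from RefSeq.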

Additional observations from a re-analysis of the deposited data

Results flagged for a closer look

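Of the 60 named genes, 36 differed between the lines by the limma interaction test as deposited, 15 positive and 21 negative, which restates the choice of those named for their size. Values are the interaction on log2(FPKM + 1), H929 minus MM1S. The response was higher in H929 for MILR1 (3.59), ENDOG (3.16), ST3GAL4-AS1 (2.93), CACNG6 (2.83), UPK3A (2.79), HIST1H2BG (2.7), ZNF341-AS1 (2.31), HIST1H2BN (2.14), HIST2H2BE (2.1), TYMSOS (2.08), CDCA7 (1.64), SLC27A2 (1.63), WHSC1 (1.59), SPARC (1.5) and HEMGN (1.34).

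It was lower in H929 for OR7E12P (-3.34), STC2 (-3.01), ATF5 (-2.91), IFRD1 (-2.89), MT1E (-2.71), KIF26A (-2.68), HBE1 (-2.36), TLCD1 (-2.3), LINC01291 (-2.25) and PTOV1-AS2 (-2.11). Smaller negative interactions were those of EPB41L4A-AS1 (-2.07), NOP14 (-1.95), DNAJB6 (-1.89), DUSP5 (-1.87), TMEM150A (-1.75), AEN (-1.75), LYAR (-1.75), RRP1 (-1.73), NOB1 (-1.59), DDX21 (-1.55) and NABP1 (-1.38).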

How the results depend on the processing

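The count of genes past the interaction test as deposited, 169, depended on most settings. It was 66 with only the 12 libraries of 24 h, 35 with a pseudocount of 0.1, 679 with a pseudocount of 5, 107 with no filter, 780 with the DMSO libraries of 6 h as control and 1532 after median-of-ratios rescaling. It was 70 without the 2 libraries whose spike-ins scatter most, a setting chosen after seeing the data, and 50 to 2396 when each library was left out in turn. The rescaled count of 1532 was 959 with only the 12 libraries and 996 to 1610 when each library was left out, and stayed within 1.5 times under the other settings. With a replicate block on the replicate number the deposited count was 111, and with a block on pairs of DMSO and YKL 38 (1487 and 1121 after rescaling). Deviations of DMSO and YKL samples with the same number correlated between -0.131 and 0.187. The DMSO sample matched its own number best in H929 replicate 1 on both scales and in H929 replicate 3 after rescaling, and never in MM1S. The labels do not say whether samples were paired, and these correlations cannot settle it. Array weights could not be fitted to the deposited values.

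Among named genes these signs turned. As deposited, E2F1 stood at 0.45 with a pseudocount of 0.1, and MCM2 and CDKN1A at -0.38 and -0.17 with one of 5. With the DMSO libraries of 6 h as control TNFRSF17 stood at 0.0155, DDIT4 at -1.42, CDK7 at 0.0753, MYC at 1.94, IRF4 at 1.42, E2F1 at 1.08, CDKN1A at -0.47 and LYAR at 0.0694. After rescaling with that control DDIT4 stood at -1.95, CDK7 at -0.19, MYC at 0.75 and CDKN1A at -0.81. Without the 2 scattering libraries IRF4 stood at 0.0435 and E2F1 at 0.0222. Rescaling gave CDK7 0.37, IRF4 0.30 and E2F1 0.80. With 1 library left out the deposited interaction ran from -0.36 to 0.11 in CDK7, -0.16 to 0.35 in CDKN1A, -0.53 to 0.0723 in E2F1, -0.0505 to 0.48 in PTGES3, -0.63 to 0.0435 in IRF4, -0.0898 to 0.57 in MCM2 and -0.0413 to 0.64 in DDIT4. The cause was not tested. Depth is unknown and limits low genes to an unknown degree.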

Other observations

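Energy metabolism genes that passed after rescaling were positive with the 24 h control, and the direction of glycolysis genes turned with the control. Glycolysis and hypoxia genes had 8 of 36 positive and 0 negative interactions, against 8.02% and 4.32% of all genes, with medians of -0.17 in H929 and -0.69 in MM1S. They include the glycolytic enzymes PGK1, PKM and ALDOC and the pyruvate dehydrogenase kinase PDK1. Nuclear genes of oxidative phosphorylation had 9 of 54 positive and 0 negative, with medians of 0.00103 and -0.34. With the DMSO libraries of 6 h as control glycolysis and hypoxia genes had 0 positive and 14 negative interactions after rescaling, with a median of -0.49, and oxidative phosphorylation genes 2 positive and 0 negative. As deposited 0 of either list passed the limma test with the 24 h control, and leaving out 1 library gave 5 to 11 (lowest without H929 DMSO replicate 1) and 4 to 11 (lowest without H929 DMSO replicate 3) rescaled calls. MHC genes had 4 of 22 positive, among them B2M and HLA-B, and proteasome genes 4 of 37 negative, of which 0 remained without H929 DMSO replicate 3. Cholesterol synthesis genes had 4 positive and 1 negative of 29, and BCL2 and IAP family genes 3 and 2 of 23. Interferon-stimulated genes had 2 and 0 of 33, NF-kB targets 1 and 1 of 30, immediate early and DUSP genes 2 and 3 of 34, and myeloma regulators 3 and 3 of 28.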
